A study of Bos taurus with 12 samples.

Results

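NPL (ENSBTAG00000002266), AMY2B (ENSBTAG00000019093) and DHRSX (ENSBTAG00000049411) are 3 genes for enzymes that act on sugars or on the lipid that carries sugars. They were taken by identifier from the count table, which holds 27607 genes, and all 3 were among the 13012 genes that passed the filter on low counts. They were chosen by their fold change and unadjusted P between fertile and subfertile heifers, so that difference is described below and not tested. The samples were peripheral white blood cells (PWBCs) of 12 Simmental-Angus cross-bred heifers, bled 2 days before artificial insemination (AI), with 1 RNA library per heifer. The 6 fertile heifers (labelled Pregnant) conceived to that first AI. The 6 subfertile heifers (labelled Open) conceived neither to AI nor in a further 60 days with bulls, and were otherwise described as healthy and cycling. Both groups had received the same synchronization with GnRH, a progesterone insert for 7 days and prostaglandin, and were inseminated about 54 h after the insert was removed, so all 12 carried this hormone treatment. The reproductive tract score (RTS) was 4 in 5 heifers of each group and 5 in the remaining heifer of each. Heifers had been picked to be alike in RTS, body weight and age at breeding, and neither weight nor age was used here.

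NPL, N-acetylneuraminate lyase, is the cytosolic aldolase that splits free sialic acid into N-acetylmannosamine and pyruvate. Sialic acids cap the glycans on the surface of blood cells and take part in cell adhesion and in recognition between cells. AMY2B is an alpha-amylase, a secreted enzyme that cuts the internal bonds of starch and glycogen and is best known from the pancreas. DHRSX belongs to the short-chain dehydrogenase/reductase family and acts in the conversion of polyprenol to dolichol, the membrane lipid on which the sugar chain for N-glycosylation is built.

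Between 14010736 and 21278761 reads were counted on genes per library, and between 15625 and 16323 genes had at least 1 read. The values below are CPM, the reads of a gene relative to all reads counted in its library, scaled with TMM, a normalization that makes libraries comparable by trimming the most extreme genes. TMM factors ran from 0.896 to 1.106. T cell marker CD3E (322 to 740 CPM), B cell marker CD79A (335 to 719 CPM) and the monocyte and macrophage marker CD68 (8.76 to 23.5 CPM) were present in every library. Of the granulocyte genes, S100A9 lay between 21.7 and 211 CPM and CXCR2, a chemokine receptor of neutrophils, between 0 and 7.81 CPM. The summed level of the 4 platelet markers with a name in the tables used (ITGA2B, GP9, ITGB3 and TUBB1, of 10 in the list) ran from 528 to 9910 CPM, none of the 4 was at 0 in any library, and the library of fertile heifer 6 stood apart at 9910 CPM against 3160 CPM or less in the other 11. Relations with platelet and other marker genes are given with and without that library, an alternative chosen after seeing the data.

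The NPL transcript ranged from 10.5 CPM through a median of 24 CPM to 41.9 CPM in fertile heifers. In subfertile heifers it ranged from 5.27 CPM through a median of 9.82 CPM to 22.2 CPM. The groups overlapped: 3 fertile heifers lay above every subfertile heifer and 4 subfertile heifers lay below every fertile heifer, while fertile heifers 1 and 4, at 10.5 and 10.8 CPM, were inside the subfertile range. Fertile heifers 2 and 6 had almost the same level, 41.9 and 41.8 CPM, and subfertile heifer 2, at 22.2 CPM, was the one subfertile heifer above fertile heifer 5 (19.4 CPM). As group means this was 25.5 ± 14.3 CPM (SD, n = 6) against 11.7 ± 5.9 CPM (SD, n = 6), a log2 fold change (log2FC, subfertile against fertile) of -1.12 with a standard error of 0.40, or a level 2.18 times as high in the fertile group.

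For AMY2B the level was low throughout. Fertile heifers had from 1.21 CPM through a median of 1.93 CPM to 2.27 CPM, and subfertile heifers from 2.24 CPM through a median of 3.59 CPM to 4.29 CPM. The groups overlapped by a single pair: 5 subfertile heifers were above the whole fertile group, and subfertile heifer 3 (2.24 CPM) was just below fertile heifer 4 (2.27 CPM). These levels rest on 20 to 85 reads per library, so each has a wide counting interval. The 41 reads of subfertile heifer 3 gave an exact Poisson 95% interval of 1.61 to 3.04 CPM, and the 46 reads of fertile heifer 4 one of 1.66 to 3.03 CPM. The intervals cover counting error only. The group means were 1.82 ± 0.451 CPM (SD, n = 6) and 3.38 ± 0.8 CPM (SD, n = 6), and the log2FC was 0.89 with a standard error of 0.26.

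DHRSX was below the fertile median in all 6 subfertile heifers. Its level in fertile heifers went from 12.4 CPM through a median of 17.3 CPM to 20 CPM, and in subfertile heifers from 6.34 CPM through a median of 12.2 CPM to 14.4 CPM. Every fertile heifer but 1 lay above the whole subfertile group, the exception being fertile heifer 4 at 12.4 CPM, which 3 subfertile heifers exceeded (12.7, 12.9 and 14.4 CPM). Subfertile heifers 1 and 4 had the lowest levels, 6.34 and 8.75 CPM. Mean levels were 16.9 CPM (SD 2.98, n = 6) and 11.1 CPM (SD 3.01, n = 6), and the log2FC was -0.60 with a standard error of 0.20. In the RefSeq annotation of a later assembly, ARS-UCD2.0, the span of DHRSX overlaps that of ZBED1 and of a small nucleolar RNA, so reads from a stretch shared by both genes could be missing from its count or misplaced. No overlapping gene was listed there for NPL or AMY2B.

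**Figure D1:**
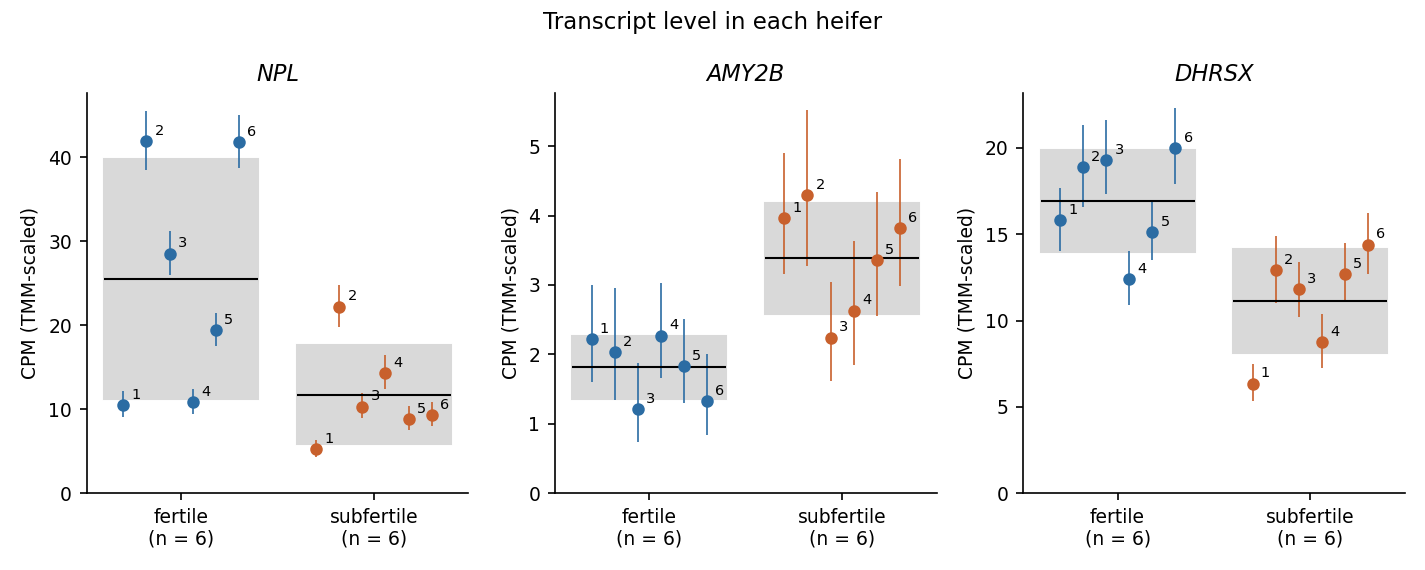
Level of NPL, AMY2B and DHRSX in each heifer, in CPM on linear axes that start at 0. Points are single heifers numbered within their group, thin bars are exact Poisson 95% intervals of the count, black lines are group means and grey boxes the mean ± SD (n = 6). NPL spreads from 10.5 to 41.9 CPM among fertile heifers, and the groups of AMY2B touch only at 2.24 and 2.27 CPM.

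These differences are what the choice of the genes rests on. All 3 were past an unadjusted P of 0.05 and an absolute log2FC of 0.5 in the edgeR quasi-likelihood test, as were 182 of the 13012 genes tested (1.4%), and nothing is read from that count of 3. No gene passed an edgeR P adjusted by the Benjamini-Hochberg method over all genes, with 0 at 0.05 or less (341 were at an unadjusted P of 0.05 or less, and DESeq2 also gave 0 adjusted calls). The direction of each fold change was the same in all 12 fits that left out a heifer. Each fit reuses the other heifers on which the genes were chosen. The fits thus show how far a value rests on single heifers and do not test the difference. NPL was between -1.41, without subfertile heifer 2, and -0.93, without fertile heifer 2 or 6. AMY2B was between 0.80, without fertile heifer 3, and 0.99, without subfertile heifer 3. DHRSX was between -0.69, without subfertile heifer 6, and -0.48, without subfertile heifer 1, and in the latter fit it was inside the 0.5 threshold that it passed with all 12 heifers.

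The heifers with an RTS of 5 were at opposite ends for NPL: fertile heifer 2 had the highest level (41.9 CPM) and subfertile heifer 1 the lowest (5.27 CPM). Subfertile heifer 1 was also lowest for DHRSX. Among the heifers scored 4, a comparison added after seeing the data, the log2FC was -0.77 (standard error 0.39) for NPL, -0.45 (standard error 0.18) for DHRSX and 0.88 (standard error 0.30) for AMY2B. There DHRSX was again inside the 0.5 threshold, and NPL was less than 2 of its standard errors from 0. With the score as a term in the model of all 12 heifers the values were -1.11, -0.63 and 0.89, in the same order.

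**Figure D2:**
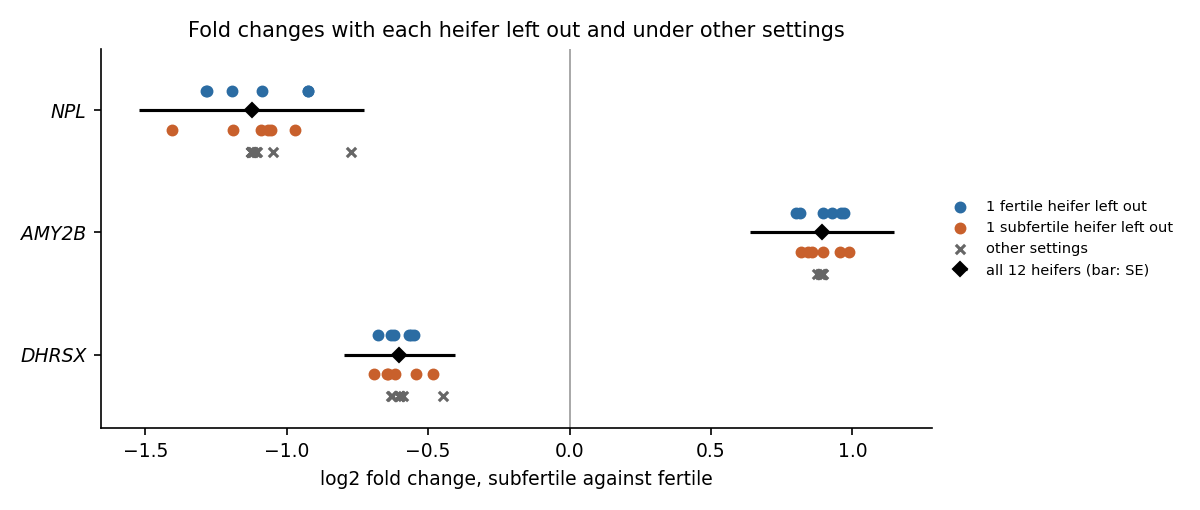
Log2 fold change of each gene, subfertile against fertile. Black diamonds are the fit of all 12 heifers with its standard error, circles are fits with 1 fertile (blue) or 1 subfertile (orange) heifer left out, and crosses are other tests, normalizations, filters and sets of heifers. No fit crossed 0, and NPL had the widest range. All fits reuse heifers on which the genes were chosen, so the kept direction is no test.

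Among heifers of the same group, NPL was the most variable of the 3 genes. The highest fertile level of NPL was 3.99 times the lowest and the highest subfertile level 4.22 times the lowest, against 1.88 and 1.91 times for AMY2B and 1.62 and 2.27 times for DHRSX. On the log2 CPM scale the within-group SD of NPL was 0.80, larger than that of 90% of the genes tested. It was 0.36 for both AMY2B and DHRSX, close to the median gene at 0.30. Counting error was a small part of the spread of NPL, as the variance expected from its read counts alone was 0.752% of the squared coefficient of variation in fertile and 2.07% in subfertile heifers. For DHRSX this share was 10.9% and 7.21%. It was 49.8% and 30.5% for AMY2B, so the depth limits what the spread of AMY2B among heifers of a group can show.

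Whether the 3 transcripts moved together among heifers of the same group does not depend on the difference that chose them, so it was tested after subtracting each group's mean. NPL and DHRSX had a within-group Pearson's r of 0.61 (n = 12, two-sided permutation test within groups, P = 0.0334, adjusted over the 3 pairs P = 0.10) and a Spearman's rho of 0.455 (permutation P = 0.146, adjusted P = 0.438). The pair did not pass after adjustment. The r was 0.859 among the 6 fertile and 0.493 among the 6 subfertile heifers, 0.569 without fertile heifer 2 and subfertile heifer 2, and 0.575 without fertile heifer 6. The 2 heifers left out together, here and for the other pairs, are those farthest from the median of the first gene's log2 CPM once group means were subtracted, and fertile heifer 6 was almost as far out as fertile heifer 2 for NPL. With libraries scaled by their size alone, without TMM, the r of NPL and DHRSX was 0.468 (permutation P = 0.11, adjusted P = 0.22).

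NPL and AMY2B had a within-group r of -0.376 (n = 12, permutation P = 0.248, adjusted P = 0.372) and a rho of -0.294 (permutation P = 0.371, adjusted P = 0.557). That pair was uneven: r was -0.649 among fertile and -0.021 among subfertile heifers, and it became -0.84 when fertile heifer 2 and subfertile heifer 2 were left out and -0.647 without subfertile heifer 2 alone. Subfertile heifer 2 combined the highest AMY2B level (4.29 CPM) with the highest subfertile NPL level (22.2 CPM). For AMY2B and DHRSX r was -0.258 (n = 12, permutation P = 0.448, adjusted P = 0.448) and rho -0.175 (permutation P = 0.612, adjusted P = 0.612), with -0.732 in the fertile group, 0.0212 in the subfertile group and -0.14 without fertile heifer 3 and subfertile heifer 3. None of the 3 relations passed an adjusted P of 0.05.

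**Figure D3:**
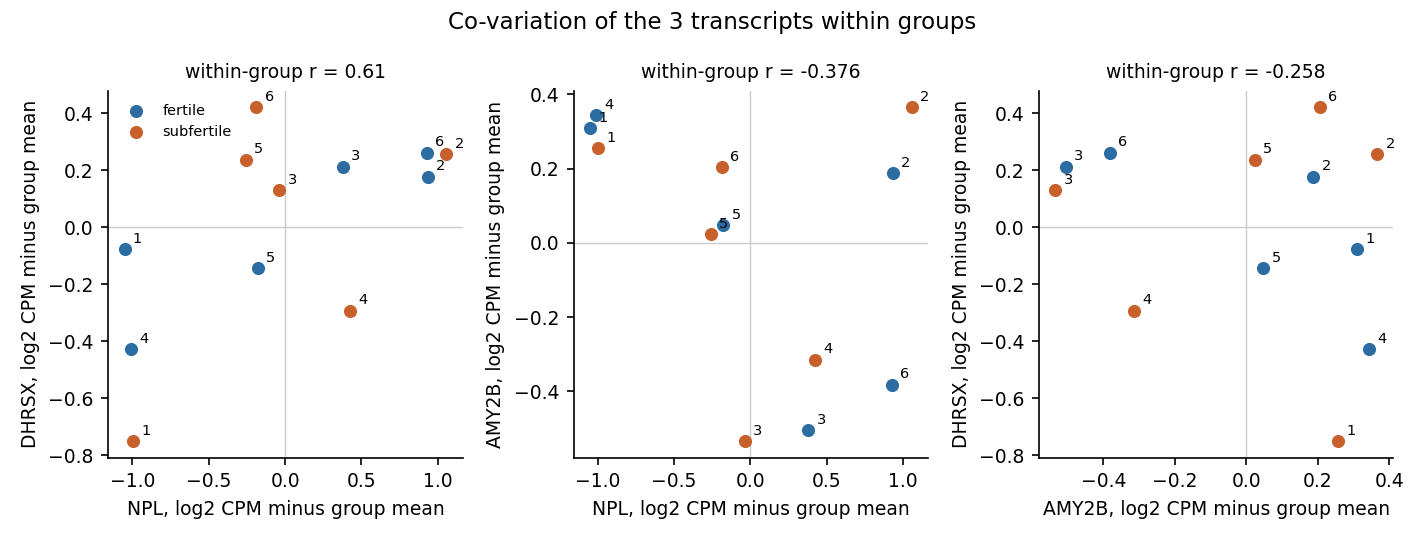
Each panel plots 2 of the 3 genes against each other as log2 CPM minus the mean of the heifer's group. Points are heifers, numbered within fertile (blue) and subfertile (orange). NPL and DHRSX have a within-group r of 0.61, and subfertile heifer 2 lies high for both NPL and AMY2B.

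The number of genes detected and the depth of a library moved with NPL. Within groups, NPL had an r of -0.88 (n = 12, a description with no test) with the number of genes detected, -0.69 with the total count and -0.67 with the TMM factor. Fertile heifers 1 and 4, with the lowest fertile NPL levels, had 16192 and 16251 genes detected, and the other 4 had between 15646 and 15809. Subfertile heifer 2, with the highest subfertile NPL level, had 15625 genes detected, and subfertile heifer 1, with the lowest, had 16323. The same r with genes detected was -0.53 for DHRSX and 0.33 for AMY2B, and with the TMM factor -0.38 and 0.32. The part of these measures in the differences between groups was not tested.

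Platelet markers moved with NPL as well. The summed level of the 4 named platelet markers had a within-group r of 0.73 and a rho of 0.66 with NPL (n = 12, a description), 0.80 in the fertile group, 0.58 in the subfertile group, and 0.67 without fertile heifer 6. For DHRSX it was 0.42, and 0.35 without fertile heifer 6. For AMY2B it was -0.49, and -0.35 without that heifer. The markers themselves ran from 536 through a median of 2450 to 9910 CPM in fertile heifers and from 528 through a median of 1420 to 3160 CPM in subfertile heifers. Fertile heifer 1 and subfertile heifer 1, with the lowest marker sums of their groups, also had the lowest NPL levels of their groups. CCR3, the eotaxin receptor of eosinophils and basophils and the one gene named of a list of 13, ranged from 10.9 to 207 CPM in fertile and from 11.1 to 41.1 CPM in subfertile heifers. Its r was 0.76 with NPL (rho 0.53, and an r of 0.74 without fertile heifer 6), 0.60 with DHRSX (rho 0.75, and 0.64 without that heifer) and -0.51 with AMY2B (rho -0.53, and -0.38 without it). The 8 named monocyte markers, from 358 to 683 CPM in sum, had an r of 0.19 with NPL (0.20 without fertile heifer 6), but single genes of the list went opposite ways. ITGAM, an integrin of monocytes and neutrophils, was at -0.71 (-0.83 without that heifer) and VCAN at -0.37 (-0.15), while MS4A7 was at 0.57 (0.45) and CX3CR1, the fractalkine receptor, at 0.43 (0.51). The 2 named neutrophil markers, from 21.7 to 215 CPM in sum, had an r of -0.13 with NPL, which was 0.19 without fertile heifer 6. The 3 named plasma cell markers (of 8) had one of -0.62 (-0.56 without it), from 291 to 491 CPM in sum in fertile and from 381 to 746 CPM in subfertile heifers. Most of that sum is JCHAIN, the joining chain of secreted antibodies, at -0.68 (-0.62), whereas XBP1 was at 0.56 (0.54) and PRDM1 at -0.19 (-0.16). The 4 named T cell markers had an r of 0.38 with NPL in sum (0.24 without fertile heifer 6). CD3E was at 0.58 (0.49), CD8A at 0.39 (0.25) and TCF7 at 0.33 (0.17), while CD4 was at -0.18 (-0.37). For the 3 named NK cell markers the sum was at 0.38 (0.22), with 0.63 among fertile and -0.21 among subfertile heifers. Of these, PRF1, the perforin of NK and cytotoxic T cells, was at 0.57 (0.47), GZMB at 0.36 (0.36) and TBX21 at 0.16 (-0.05). The B cell gene CD79A, the one gene named of a list of 10, had an r of 0.41 with DHRSX (0.37) and 0.17 with NPL (0.07). In RNA from mixed cells, fewer cells of a type and less RNA per cell cannot be told apart, and the part of platelets, eosinophils or any other cell in the NPL difference was not tested. Without fertile heifer 6, the library richest in platelet markers, the log2FC of NPL was -0.93, that of DHRSX -0.55 and that of AMY2B 0.82.

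**Figure D4:**
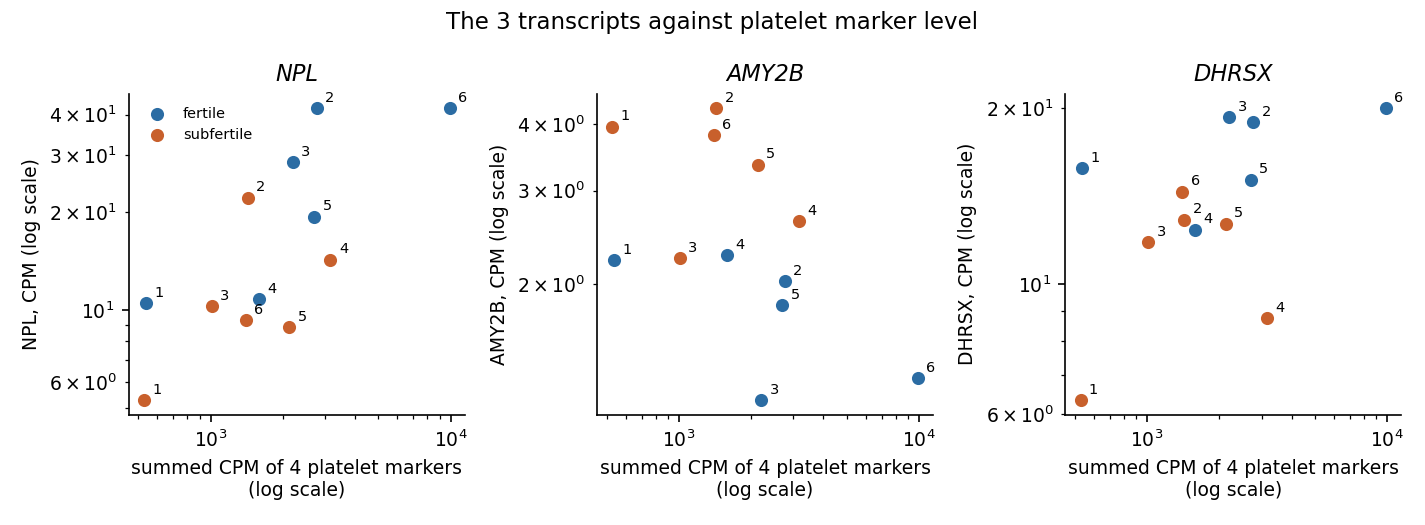
Level of each gene against the summed level of 4 platelet markers, both in CPM on log axes, with heifers numbered within fertile (blue) and subfertile (orange). Fertile heifer 6 lies far to the right at 9910 CPM of platelet markers. The within-group r is 0.73 for NPL, -0.49 for AMY2B and 0.42 for DHRSX.

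The genes whose levels followed each enzyme within groups were looked up among the 2918 other tested genes that have a name in the tables used. Those tables include genes that the study listed for co-expression in these same heifers. A gene may therefore have a name because of its correlation, and the look-up is not independent of the data. For NPL the 5 highest were P2RY1, an ADP receptor known from platelets, at an r of 0.90 (0.97 among fertile and 0.77 among subfertile heifers), JUP, the junction protein plakoglobin, at 0.89, CUTC at 0.87, RASSF1, a Ras-association domain protein, at 0.85 and DYRK3, a protein kinase, at 0.85. P2RY1 had a mean of 29.4 ± 14.1 CPM in the fertile and 19.1 ± 5.86 CPM in the subfertile group (SD, n = 6 each). JUP was near the lower end of detection, at 1.36 ± 1.13 CPM in the fertile and 0.518 ± 0.276 CPM in the subfertile group (SD), so its r rests on few reads. The 3 lowest were AMACR, a racemase of branched fatty acid breakdown, at -0.90, NADK, which makes NADP from NAD, at -0.89 and ZBTB10, a zinc finger protein, at -0.84. Over all 13011 other genes tested, 38 had an r of 0.8 or more with NPL and 23 one of -0.8 or less. The lowest, at -0.94, was that of a gene without a name.

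Among the named genes, AMY2B was followed most closely by CDC42BPG, a kinase of the cytoskeleton, at an r of 0.86, PCK1, the gluconeogenic enzyme phosphoenolpyruvate carboxykinase, at 0.79, SLC22A5, the carnitine transporter, at 0.78, KIF16B, a kinesin, at 0.74, and TAP1, a peptide transporter of antigen presentation, at 0.71. Over all genes tested the r with AMY2B reached 0.89 and -0.89, both for genes without a name. PCK1 was itself near the lower end of detection, at 0.641 CPM in fertile and 0.565 CPM in subfertile heifers. At the other end of the named genes were DPY30, a subunit of histone methyltransferase complexes, at -0.85, TXN (thioredoxin) at -0.83 and PPA2, a mitochondrial pyrophosphatase, at -0.81. Here 13 genes reached 0.8 and 13 reached -0.8.

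For DHRSX the highest named genes were SLC50A1, a sugar transporter, at 0.88, ECD at 0.79, ADRB1, a beta adrenergic receptor, at 0.78, NEURL2 at 0.78 and SMARCD3, a subunit of the SWI/SNF chromatin remodelling complex, at 0.77. Over all genes tested the highest r with DHRSX was 0.9, for a gene without a name. The r with ADRB1 was 0.96 among subfertile and -0.39 among fertile heifers, a difference that was not tested. ADRB1 was low, at a mean of 1.36 CPM in fertile and 1.58 CPM in subfertile heifers. NEURL2 was low too, at 1.34 CPM in fertile and 0.831 CPM in subfertile heifers. ACOX3, a peroxisomal acyl-CoA oxidase, was lowest at -0.86, followed by TICAM2, an adaptor of Toll-like receptor signalling, at -0.82 and TBC1D15 at -0.78. In all, 9 genes reached 0.8 and 4 reached -0.8. Without fertile heifer 6 each of the 24 genes named for the 3 enzymes kept the sign of its r, and the r that changed most was that of TAP1 with AMY2B, at 0.65. These are the extremes of many genes over 12 heifers, and they are a description with no test. How many of the 13011 genes would reach these limits by chance was not computed. Nothing is therefore read from the counts at 0.8 and -0.8 for any of the 3 enzymes.

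The other genes of the 3 enzymes' pathways were compared between groups in the same edgeR fit. Of 36 genes listed for the making, transfer and removal of sialic acid, 8 have a name in the tables used and all 8 were tested. None passed both thresholds (0 higher, 0 lower) against 1.4% of all genes, and their median log2FC was -0.19, within a range of -0.30 to 0.17, where the median of all genes was 0.008. CMAS, which activates sialic acid for transfer, had a mean of 62.4 ± 17.6 CPM in the fertile and 51.6 ± 6.2 CPM in the subfertile group (SD, n = 6 each), which gave a log2FC of -0.27 (standard error 0.16, edgeR adjusted P 0.9998). ST3GAL1, a sialyltransferase of O-glycans, was at -0.21 (standard error 0.16) and GNPDA2, which acts on glucosamine phosphate downstream of sialic acid breakdown, at 0.17 (standard error 0.12). Within groups the r with NPL was highest for CMAS, at 0.73 (0.70 without fertile heifer 6), and lowest for GNPDA2, at -0.34 (-0.36), and ST3GAL1, at -0.33 (-0.55), while that of ST6GALNAC6, another sialyltransferase, was 0.51 (0.38).

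Of 35 genes of starch and glycogen turnover, 10 have a name and were tested, and 0 passed both thresholds in either direction, where 1.4% of all genes did. PYGL, the glycogen phosphorylase of liver and leukocytes, had a mean of 427 ± 336 CPM in the fertile and 258 ± 113 CPM in the subfertile group (SD, n = 6 each), which gave a log2FC of -0.73 (standard error 0.40, edgeR adjusted P 0.9998), and its highest level was 1090 CPM. It passed both unadjusted thresholds in 1 of the 12 fits with a heifer left out, that without fertile heifer 1, at -0.90, in which 365 of 13163 genes were called. PYGB, another glycogen phosphorylase, was at -0.17 (standard error 0.15) and PHKG2, a subunit of the kinase that activates phosphorylase, at 0.08 (standard error 0.11). The median of the 10 was -0.05 and their range -0.73 to 0.39. The highest value, 0.39 (standard error 0.62), was that of MGAM, an intestinal and leukocyte glucosidase that acts after amylase, at 0.524 CPM in fertile and 0.704 CPM in subfertile heifers.

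For dolichol and the N-glycan built on it, 11 of 35 listed genes have a name, and 0 of the 11 passed in either direction, again beside 1.4% of all genes. With so few genes, a count of 0 in these lists does not set them apart from that share. DHDDS, a subunit of the enzyme that makes the polyprenol chain upstream of DHRSX, had a mean of 15.5 ± 2.04 CPM in the fertile and 15 ± 2.26 CPM in the subfertile group (SD, n = 6 each), which gave a log2FC of -0.04 (standard error 0.14, edgeR adjusted P 0.9998). Among the subunits of the oligosaccharyltransferase, which moves the finished sugar chain to proteins, RPN1 was at -0.37 (standard error 0.28), DDOST at -0.004 (standard error 0.12) and STT3A at 0.10 (standard error 0.08). The median of the 11 was 0.

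DHRSX is one of many short-chain dehydrogenases, and 10 of 50 listed relatives have a name and were tested. One of the 10, DHRS7, a microsomal member of the family, was past both unadjusted thresholds and was lower in subfertile heifers, where 0.738% of all genes were called lower; its edgeR adjusted P was 0.9998, and 0 of the 10 were called higher. DHRS7 ran from 18.1 to 271 CPM in fertile and from 11.1 to 39.7 CPM in subfertile heifers, with the value of 271 CPM in fertile heifer 6 and the next highest at 54.5 CPM. Its log2FC of -1.57 (standard error 0.61) was -0.50 (standard error 0.36) without fertile heifer 6, where it was no longer called, and with voom it was -1.03 and not called. HSD17B11, which acts on steroids and lipid droplets, was at -0.26 (standard error 0.15), and HSD17B12, an enzyme of fatty acid elongation, at -0.50 (standard error 0.28). DHRS1 and DHRS11, the other named DHRS genes, were at 0.04 (standard error 0.11) and -0.15 (standard error 0.15). DHRS7 had a within-group r of 0.58 with DHRSX (0.64 without fertile heifer 6) and of 0.74 with NPL (0.75 without it). Names were known for fewer than 80% of each list. They came from tables that include genes listed for their difference between these same groups or for co-expression in these heifers. The counts therefore describe the named genes and not the pathways. Of the 26 protein-coding genes next to the 3 enzymes in RefSeq, 1 has a name, NMNAT2 near NPL, at a log2FC of -0.32 (standard error 0.40, edgeR adjusted P 0.9998).

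**Figure D5:**
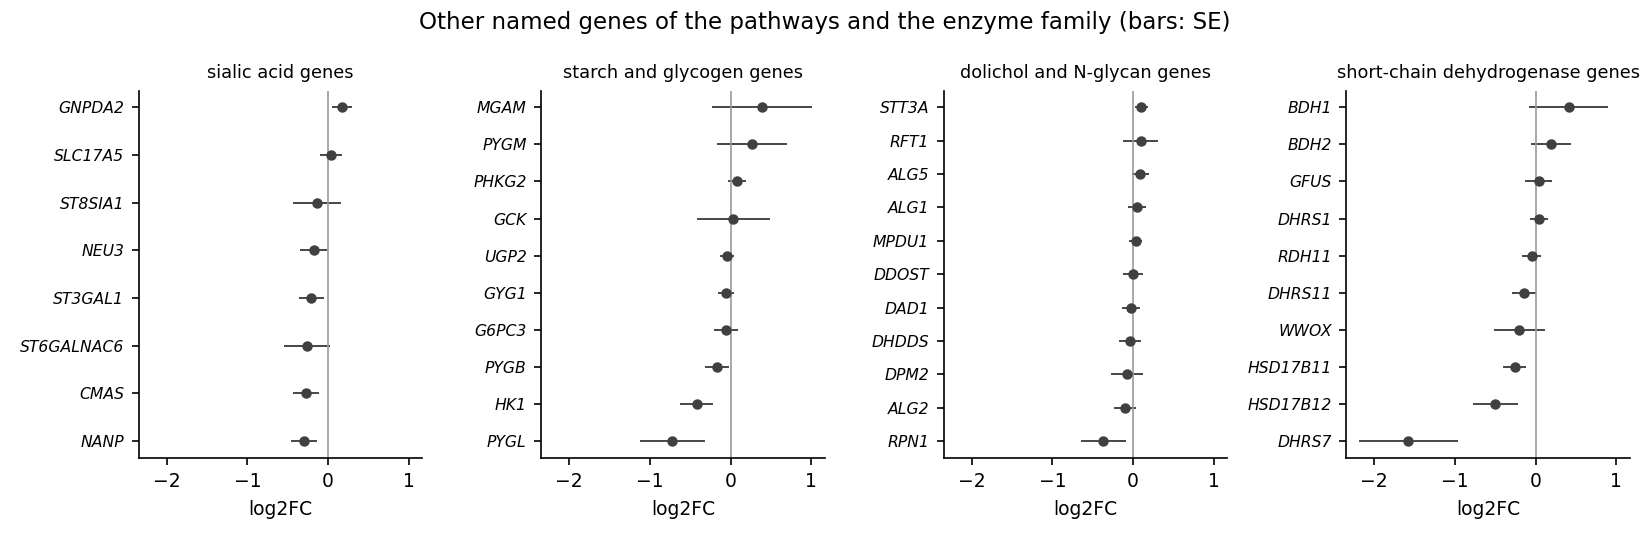
Log2 fold change (subfertile against fertile, bars are standard errors) of the other named genes of sialic acid metabolism, starch and glycogen turnover, dolichol and N-glycan assembly, and the short-chain dehydrogenase family. DHRS7 at -1.57 is the one gene past both unadjusted thresholds, and most others lie within 0.30 of 0.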

How the data were processed

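RNA from the PWBCs of 12 heifers was extracted in a single batch and sequenced as strand-specific poly(A) libraries in 1 run. The authors mapped the reads with STAR 2.7.5 to ARS-UCD1.3, after FastQC 0.11.9 and MultiQC 1.12, and deposited raw counts of reads per Ensembl gene, without normalization. The strand column taken is not given in the sources used here. Multimapping reads are not counted by that option of STAR.

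Genes were kept with filterByExpr (fertility groups, minimum count 10), normalized with TMM and tested with edgeR 4.0.16 in R 4.3.3, with group as the only term, although the study used DESeq2. Genes were called at an unadjusted P of 0.05 and an absolute log2FC of 0.5. DESeq2 1.42.0, voom (limma 3.58.1), other normalizations and filters, the RTS as a term and each library left out were alternatives. Correlations were taken on log2 CPM (prior count 2), with 100000 permutations within groups (Python 3.11.15). Identifiers were paired with symbols through the paper's supplementary tables, which cover 2922 genes. The members and lists were chosen with earlier results of these data known. The genes named are the 3 members, list genes called, the most abundant list genes, and the 5 most and 3 least alike named genes; a few other list genes with a clear role were named after their values were seen. On simulated data with 12869 genes kept, edgeR recovered 49.5% of genes changed by 1 and 89.7% of those changed by 2 on the log2 scale at an adjusted P of 0.05. It made 6 false calls. The counts were drawn for each gene separately from the spread that edgeR estimated, with no shift shared among genes. These rates therefore need not hold for the heifers, whose libraries differed in marker levels. No library pair was identical. Protein values were not used here.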

Additional observations from a re-analysis of the deposited data

Results flagged for a closer look

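Among the 3 enzymes, the 24 genes most and least alike and DHRS7, 56 groups of 6 heifers were examined on the log2 CPM scale for a value far from the others. Chance alone would mark about 1 in 20, and the 2 groups marked are no more than that share. NPL, AMY2B and DHRSX had no such value on that scale or in CPM. ZBTB10, which ran opposite to NPL, was at 16.7 CPM in subfertile heifer 1, the subfertile heifer with the lowest NPL level, against 9.81 to 11.9 CPM in the other subfertile heifers. PPA2, which ran opposite to AMY2B, was at 66.9 CPM in subfertile heifer 3, the subfertile heifer with the lowest AMY2B level, against 44.3 to 50.6 CPM in the others. Both genes were examined because of their negative r with the enzyme. A high value in the heifer with the lowest enzyme level is therefore part of how they were picked. In CPM, a scale tried after seeing the data, the same 2 values stood apart, and so did DHRS7 in fertile heifer 6, at 271 CPM against 18.1 to 54.5 CPM in the other fertile heifers.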

How the results depend on the processing

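The direction of the NPL, AMY2B and DHRSX fold changes was the same in 12 fits with a heifer left out and in 9 other settings. All of these reuse heifers on which the genes were chosen, so the kept direction does not test the difference. With a heifer left out, NPL lay between -1.407 and -0.925, AMY2B between 0.802 and 0.989 and DHRSX between -0.69 and -0.481, and in the 9 settings between -1.126 and -0.773, 0.875 and 0.896, and -0.63 and -0.448; the values of NPL and DHRSX nearest 0 are those of the heifers scored 4, a setting chosen after seeing the data. The number of genes called moved from 182 to 624 when any gene with a count was tested, which adds genes with few reads, and lay between 118 (without fertile heifer 6) and 365 (without fertile heifer 1) with a heifer left out. The split of calls was 86 higher and 96 lower, and it moved both ways: 74 and 111 with library size alone, 75 and 68 with voom, 96 and 84 among heifers scored 4, 107 and 83 without subfertile heifer 1, 135 and 230 without fertile heifer 1, and 82 and 163 without subfertile heifer 4. The short-chain dehydrogenase genes called went from 1 to 0 with voom and lay between 0 and 2 with a heifer left out, 0 without fertile heifer 6 and 2 without fertile heifer 4, where HSD17B12 (-0.62) was added to DHRS7. Starch and glycogen genes called lay between 0 and 1, the 1 being PYGL without fertile heifer 1. The within-group r lay between 0.479 and 0.704 for NPL and DHRSX, -0.647 and -0.268 for NPL and AMY2B, and -0.381 and -0.12 for AMY2B and DHRSX with a heifer left out, and between 0.455 and 0.611, -0.472 and -0.294, and -0.261 and -0.17 in 5 other settings, with no adjusted P under 0.05 in either. No paired analysis applied, because each heifer belongs to 1 group and the labels give no pairs of heifers. AMY2B, at 20 to 85 reads, is the gene that depth limits.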
